A study of Mus musculus with 6 samples.

Results

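The genes described here are 9 regulators of cell cycle exit and of entry into S phase: Cdkn1b, Cdkn2c, Ccng2, Rbl2, Btg1, Btg2, Ccnd2, Ccnd3 and Klf6. They were taken by gene symbol from the annotation of the array, which named 19937 genes from probe sets with 1 symbol, and all 9 were measured. Each has 1 probe set except Cdkn1b, which has 2, and the brighter of these stands for the gene. RNA came from mouse pro-B cells transformed with v-Abl, an oncogenic tyrosine kinase that holds B cell precursors at an early, cycling stage. The 3 tamoxifen samples had 2 days of tamoxifen at 1 µM, while the 3 untreated samples received none. All 6 samples had the genotype Foxo1f/f; ERCre on the C57/BL6 strain, that is, Foxo1 alleles flanked by loxP sites and a Cre recombinase that tamoxifen activates through an oestrogen receptor domain. The labels call the tamoxifen samples Foxo1 knockout and the untreated samples WT, although both carry the floxed alleles and Cre. Cells given tamoxifen while keeping Foxo1 are no group here, so effects of the drug, of Cre and of Foxo1 loss cannot be told apart.

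FOXO1 is a forkhead transcription factor that PI3K and AKT signalling keeps out of the nucleus. In several mammalian cell types FOXO factors are known to activate genes that slow the cell cycle, among them Cdkn1b, Ccng2 and Rbl2, and to lower D cyclins. D cyclins bind CDK4 or CDK6 and phosphorylate pocket proteins of the retinoblastoma family, which frees E2F factors to start S phase, and CDK inhibitors oppose this step. In resting cells the pocket protein encoded by Rbl2 takes over and holds cell cycle genes off.

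The forkhead core was searched for in the promoters of these genes because the study deletes a forkhead factor. The windows run from 250 bases before the gene's start to 50 bases from it and come from RefSeq on GRCm38.p6. There 8 of the 9 genes had windows, 10 in all, while Ccnd2 had none and was not searched. The motif TGTTTAC, read as GTAAACA on the other strand, stood in 2 of the 10 windows, those of Btg1 and of one start of Ccnd3, and in 3.65% of all 32851 windows of this length. The shorter core TGTTTA, read as TAAACA on the other strand, which the longer motif contains, stood in 3 of 10 windows, with Cdkn1b added, and in 13.4% of all windows. The 3 windows with a match are shown first, with the match in capitals, and those of Btg2, Rbl2 and Klf6 after them, because these genes had the most separated values between the groups. The Cdkn1b match lies at -17 to -12 with the start at 0, on chr6:134920151-134920450 (+ strand). The Btg1 match lies at -204 to -198 on chr10:96616751-96617050 (+ strand), and the Ccnd3 match at -243 to -237 on chr17:47504801-47505100 (+ strand). The windows without a match are chr1:134079106-134079405 (- strand) for Btg2, chr8:91069807-91070106 (+ strand) for Rbl2 and chr13:5861239-5861538 (+ strand) for Klf6. A match is a run of letters and not a measured binding site.
Cdkn1b: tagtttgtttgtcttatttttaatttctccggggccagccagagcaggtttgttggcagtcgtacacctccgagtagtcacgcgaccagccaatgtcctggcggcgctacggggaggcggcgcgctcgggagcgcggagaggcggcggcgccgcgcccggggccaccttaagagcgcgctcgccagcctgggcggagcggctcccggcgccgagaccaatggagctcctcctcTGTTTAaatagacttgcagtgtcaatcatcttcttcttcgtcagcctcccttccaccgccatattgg
Btg1: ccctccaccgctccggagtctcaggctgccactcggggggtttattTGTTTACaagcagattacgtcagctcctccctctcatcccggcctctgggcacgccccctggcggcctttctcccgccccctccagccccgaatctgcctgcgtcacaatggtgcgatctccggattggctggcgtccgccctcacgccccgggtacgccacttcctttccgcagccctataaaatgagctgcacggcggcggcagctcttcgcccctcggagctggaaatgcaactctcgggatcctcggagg
Ccnd3: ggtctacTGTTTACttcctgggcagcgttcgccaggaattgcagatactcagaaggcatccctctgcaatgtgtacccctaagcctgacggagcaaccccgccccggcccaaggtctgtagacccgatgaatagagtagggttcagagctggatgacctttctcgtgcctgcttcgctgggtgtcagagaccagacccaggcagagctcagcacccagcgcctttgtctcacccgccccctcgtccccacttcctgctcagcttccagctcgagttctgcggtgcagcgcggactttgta
Btg2: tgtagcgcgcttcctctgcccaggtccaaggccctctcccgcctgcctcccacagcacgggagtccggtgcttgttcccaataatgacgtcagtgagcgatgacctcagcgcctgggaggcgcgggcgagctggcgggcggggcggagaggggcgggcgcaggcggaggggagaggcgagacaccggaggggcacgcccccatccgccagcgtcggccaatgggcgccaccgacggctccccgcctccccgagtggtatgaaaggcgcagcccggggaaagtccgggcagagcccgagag
Rbl2: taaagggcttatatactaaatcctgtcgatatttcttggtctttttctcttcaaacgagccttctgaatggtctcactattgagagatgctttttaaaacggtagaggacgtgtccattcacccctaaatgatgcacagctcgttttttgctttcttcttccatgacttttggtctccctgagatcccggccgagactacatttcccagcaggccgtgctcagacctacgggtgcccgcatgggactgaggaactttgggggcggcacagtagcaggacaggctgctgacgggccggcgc
Klf6: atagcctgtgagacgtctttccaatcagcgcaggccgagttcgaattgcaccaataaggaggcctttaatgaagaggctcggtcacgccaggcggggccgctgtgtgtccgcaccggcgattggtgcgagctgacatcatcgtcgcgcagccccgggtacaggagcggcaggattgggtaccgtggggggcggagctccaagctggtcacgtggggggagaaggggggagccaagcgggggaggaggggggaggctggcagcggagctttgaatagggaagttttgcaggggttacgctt

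The targeted gene, Foxo1, was lower in every tamoxifen sample. No source used here says if its probe set falls within the deleted exons. Deposited medians lay between 100.9 and 109.1 over the 6 arrays, and each array correlated with every other at r between 0.985 and 0.994 over all probe sets, so none stood apart. Foxo1 had intensities of 116, 151 and 134 in tamoxifen samples 1, 2 and 3, against 806, 624 and 512 in untreated samples 1, 2 and 3, and fell by 2.13 ± 0.15 (SE) on the log2 scale (limma adjusted p = 0.0178). That call ended with any array but untreated 1 left out, where the adjusted p lay between 0.0843 and 0.157. Of 10 pro-B cell markers listed, 9 were measured, with mean intensities from 716 to 4894. Of these, 0 of 9 passed limma in tamoxifen against untreated cells, where 0.0575% of all probe sets did. At an unadjusted p under 0.05 there were 6 of 9 (5 higher and 1 lower in tamoxifen cells), against 5.11% of all probe sets. The same 6 had groups without overlap after normalization, against 9.89% of all probe sets. Cd79b, a B cell receptor signalling chain, had a log2 fold change of 0.52 ± 0.07, Pax5, a B lineage factor, 0.38 ± 0.13, and Ebf1, another such factor, -0.51 ± 0.07 (SE). Their part in the results on the 9 cell cycle genes was not tested. Of the markers of other cell types, 5 of 6 T cell, 8 of 8 myeloid, 2 of 4 erythroid and 3 of 6 stromal genes had a mean below the arrays' median, and the highest mean was 202, in the stromal list. The summed intensities of each list overlapped between the groups: for T cells, over 6 genes, 365 to 431 in tamoxifen samples and 365 to 459 in untreated samples, and for myeloid cells, over 8 genes, 510 to 542 in tamoxifen samples and 511 to 599 in untreated samples. For erythroid cells, over 4 genes, the sums were 339 to 385 in tamoxifen samples and 380 to 391 in untreated samples, and for stromal cells, over 6 genes, 668 to 753 in tamoxifen samples and 646 to 812 in untreated samples. The T cell genes Cd3d and Cd3g and the myeloid gene S100a8 lay below the arrays' lower quartile. The labels do not state whether replicates were independent cultures. The spread behind each p-value may therefore be technical.

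None of the 9 genes passed the test of tamoxifen against untreated cells. Rbl2, Klf6 and Btg2 were higher in every tamoxifen sample than in any untreated sample, by 1.30-, 1.27- and 1.64-fold. Ccng2 was 1.38-fold higher on average, Ccnd3 was 0.866-fold of its untreated level, and Cdkn1b, Cdkn2c, Btg1 and Ccnd2 lay within 1.10-fold of it. Fold changes here compare log2(intensity + 16) after quantile normalization, a scale that understates changes of dim genes. The test was limma, two-sided, adjusted by the Benjamini-Hochberg method across all 34760 probe sets, with a threshold of 0.05. It called 0 of 9, where it called 0.0575% of all probe sets (0.0374% as higher and 0.0201% as lower in tamoxifen cells), and the lowest adjusted p among the 9 was 0.360. At an unadjusted p under 0.05 there were 5 of 9, against 5.11% of all probe sets, namely Rbl2, Klf6, Btg2 and Ccng2 upward and Ccnd3 downward. That count was 3 without tamoxifen sample 2, where Ccng2 and Ccnd3 dropped out, and 4 or 5 with any other array left out. In the same 5 the groups did not overlap after normalization, where 9.89% of all probe sets had groups without overlap. Of the 5, 4 were higher and 1 was lower in tamoxifen cells, against 5.03% and 4.87% of all probe sets. The fold change was positive in 8 of 9, with a median of 0.13 on the log2 scale, whereas 46.1% of all probe sets were positive with a median of -0.01. The 9 genes were chosen with results of these data known, so these shares describe them and carry no test, and the pro-B markers had shares as high (6 of 9 on both counts). A lower RNA level per cell and fewer cells with that RNA cannot be told apart in bulk RNA.

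**Figure D1:**
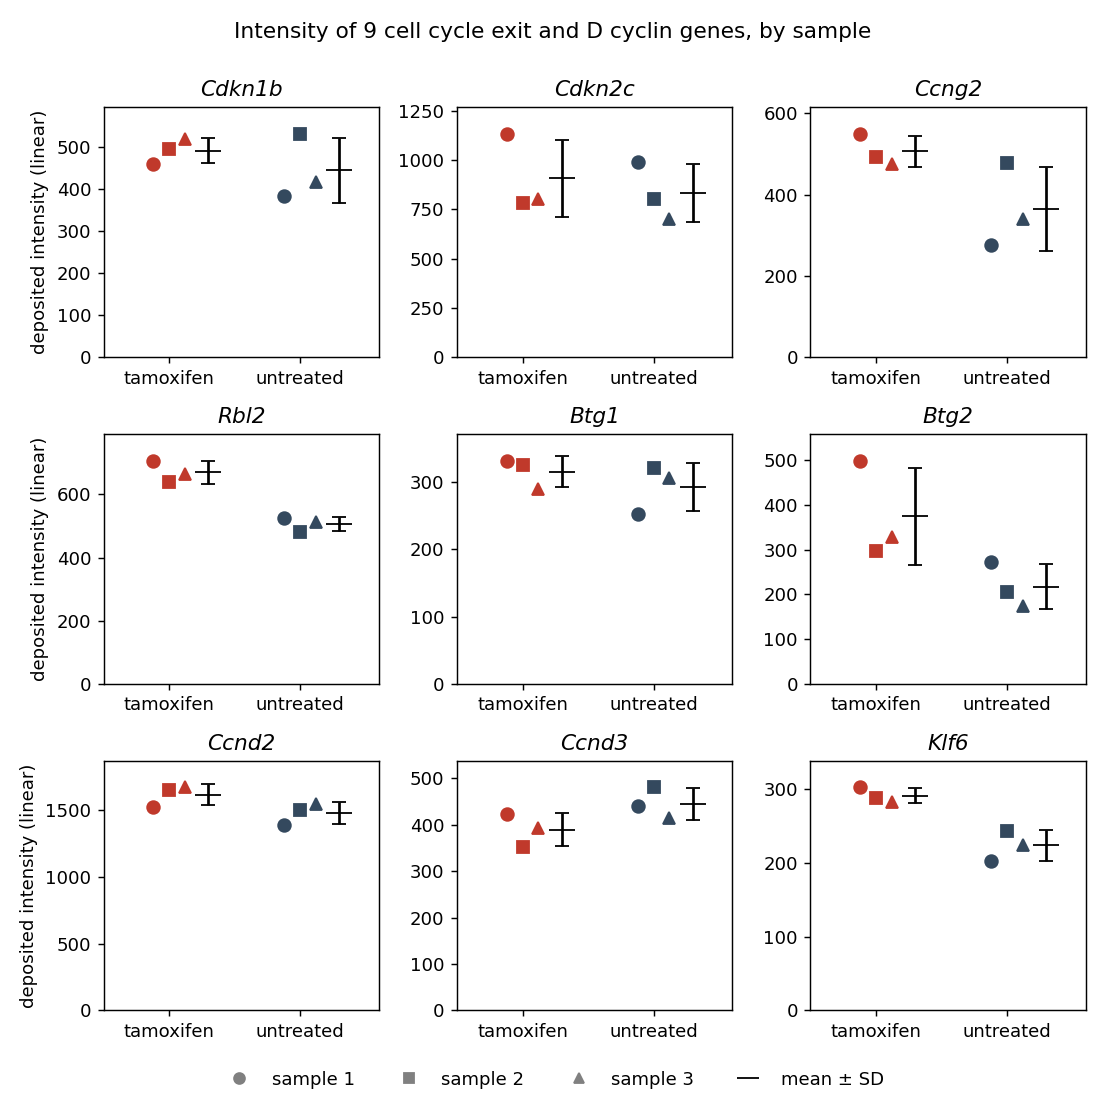
Deposited linear intensity of each of the 9 genes (brightest probe set) in the 3 tamoxifen samples (left, red) and the 3 untreated samples (right, dark), with the sample number as the symbol and the mean ± SD beside the points. Rbl2, Klf6 and Btg2 are the genes whose groups are fully apart on this scale, and tamoxifen sample 1 is the highest of its group in all genes but Cdkn1b and Ccnd2, where it is the lowest.

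Rbl2 encodes the pocket protein that represses cell cycle genes in resting cells. Its intensity was 707, 638 and 663 in tamoxifen samples 1, 2 and 3, against 525, 482 and 512 in untreated samples 1, 2 and 3. All tamoxifen values were above all untreated values, and the spread within each group was small. The means were 670 ± 35.0 in tamoxifen cells and 506 ± 21.6 in untreated cells (SD, n = 3 each), a log2 fold change of 0.38 ± 0.07 (SE) whose 95% interval was 0.20 to 0.55. Its limma p was 0.00176 unadjusted and 0.360 adjusted, the lowest of the 9, and it ranked 170 among all probe sets by p. Of its relatives, Rbl1, the pocket protein of cycling cells, had a log2 fold change of -0.13 ± 0.07 (SE) and Rb1, the founding member of the family, 0.21 ± 0.20 (SE), and neither passed (limma adjusted p = 0.9995 for both).

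Klf6 encodes a zinc finger transcription factor that restrains proliferation in several cell types. It measured 302, 288 and 283 in tamoxifen samples and 202, 244 and 225 in untreated samples 1, 2 and 3. The groups did not overlap, and the tamoxifen samples lay close together. Means were 291 ± 10.1 in tamoxifen cells and 224 ± 20.6 in untreated cells (SD, n = 3 each), and the log2 fold change of 0.34 ± 0.07 (SE) had a 95% interval of 0.17 to 0.52 and a limma adjusted p = 0.396.

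The BTG genes encode antiproliferative proteins that recruit the deadenylase subunits CNOT7 and CNOT8 to messenger RNAs. Btg2 had intensities of 499, 297 and 328 in tamoxifen samples 1, 2 and 3, against 271, 205 and 175 in untreated samples 1, 2 and 3. Every tamoxifen value was above every untreated value, with tamoxifen 1 well above the other two and untreated 1 the highest of its group. The means of 375 ± 109 in tamoxifen cells and 217 ± 49.4 in untreated cells (SD, n = 3 each) gave a log2 fold change of 0.72 ± 0.20 (SE), the largest of the 9, and a 95% interval of 0.23 to 1.20. Its limma adjusted p was 0.683, and without tamoxifen sample 1 the log2 fold change was 0.53. Btg1 had intensities of 333, 326 and 290 in tamoxifen samples and 252, 321 and 306 in untreated samples, with overlapping groups. Its log2 fold change was 0.08 ± 0.11 (SE), and the 95% interval of -0.17 to 0.34 leaves room for a 1.27-fold increase. The sign of Btg1 turned without untreated sample 1, to -0.02. The difference between the fold changes of Btg1 and Btg2 was not tested.

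Ccng2 encodes an unconventional cyclin that accumulates in arrested cells. Its intensity was 550, 493 and 476 in tamoxifen samples, against 275, 477 and 339 in untreated samples 1, 2 and 3. Tamoxifen 3 and untreated 2 were nearly level on the deposited scale, and the groups were apart after quantile normalization. The untreated group was the wider one, with means of 506 ± 38.4 in tamoxifen cells and 364 ± 103 in untreated cells (SD, n = 3 each). Ccng2 had a log2 fold change of 0.47 ± 0.17 (SE), which limma gave an adjusted p of 0.896. It was 0.28 without untreated sample 1 and 0.64 without untreated sample 2, so its size rests on which untreated samples are used.

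The values of both CDK inhibitors overlapped between the groups. Cdkn1b, which encodes an inhibitor of cyclin and CDK complexes in G1 and is a standard FOXO target, measured 461, 497 and 519 in tamoxifen samples and 385, 532 and 417 in untreated samples. The highest value of all 6 was untreated 2 and the lowest untreated 1, so the groups overlapped. Its log2 fold change was 0.13 ± 0.13 (SE) with a 95% interval of -0.18 to 0.44, that is, between 0.881-fold and 1.36-fold. It was 0.02 without untreated sample 1 and 0.23 without untreated sample 2. The second Cdkn1b probe set was dimmer, at 200, 194 and 223 in tamoxifen samples and 174, 219 and 179 in untreated samples, and gave 0.10 ± 0.10 (SE). Cdkn2c, an INK4 inhibitor of CDK4 and CDK6, measured 1133, 782 and 804 in tamoxifen samples and 992, 804 and 700 in untreated samples. In both groups sample 1 was the highest, and the log2 fold change of 0.10 ± 0.14 (SE) had a 95% interval of -0.25 to 0.45. Without tamoxifen sample 1 it was -0.03.

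The D cyclins had small fold changes of opposite sign. Ccnd3, which encodes the cyclin that drives the expansion of pre-B cells in mice, measured 424, 352 and 393 in tamoxifen samples, against 440, 481 and 414 in untreated samples. On the deposited scale tamoxifen 1 lay above untreated 3, and after normalization all tamoxifen values lay below all untreated values. The means were 389 ± 36.1 in tamoxifen cells and 445 ± 33.9 in untreated cells (SD, n = 3 each), and the log2 fold change was -0.21 ± 0.07 (SE) with a 95% interval of -0.37 to -0.04 and a limma adjusted p = 0.825. Its unadjusted p of 0.0219 became 0.166 with arrays scaled to a common median (-0.17 ± 0.11, SE), 0.0936 with no further normalization (-0.19), 0.0786 without tamoxifen sample 2 (-0.16) and 0.0648 without untreated sample 2 (-0.18), each from limma. Ccnd2, the D cyclin that lies downstream of cytokine and STAT5 signalling in lymphocytes, measured 1523, 1647 and 1670 in tamoxifen samples and 1384, 1502 and 1545 in untreated samples. The groups overlapped, with tamoxifen 1 below untreated 3, and the log2 fold change was 0.12 ± 0.11 (SE) with a 95% interval of -0.13 to 0.37. It was 0.05 without untreated sample 1 and 0.20 without tamoxifen sample 1. The third D cyclin gene, Ccnd1, averaged 123 in tamoxifen cells and 126 in untreated cells, and gave -0.03 ± 0.07 (SE).

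**Figure D2:**
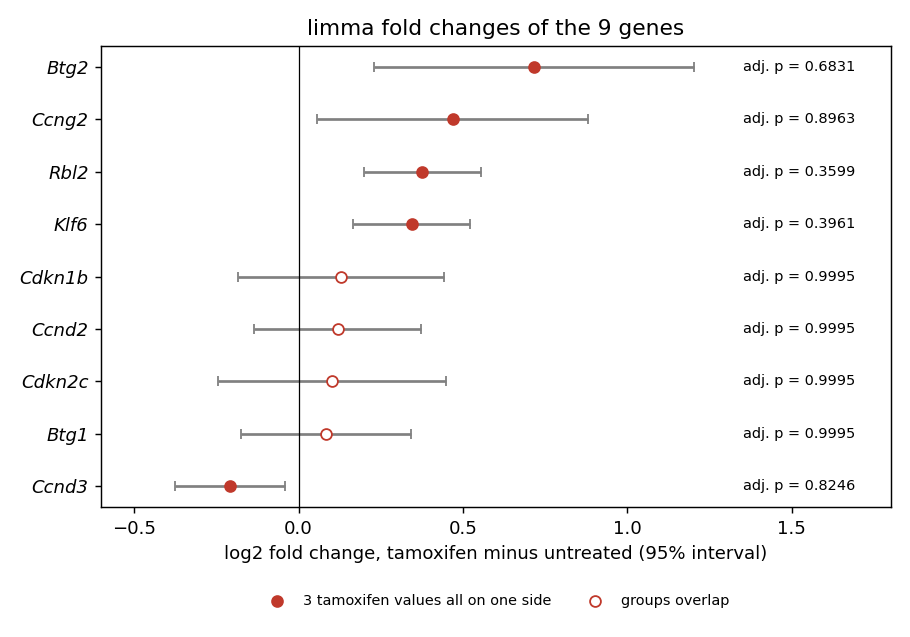
limma log2 fold change of each of the 9 genes, tamoxifen minus untreated, with 95% intervals and the adjusted p over all probe sets at the right. Filled points mark genes whose 3 tamoxifen values all lie on one side of the untreated values after normalization; the intervals of Btg2, Ccng2, Rbl2, Klf6 and Ccnd3 leave out 0, and no adjusted p is under 0.05.

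The 9 genes did not follow a single pattern across the samples. After subtraction of the untreated mean, Rbl2 stood at 0.37, 0.35 and 0.41 and Klf6 at 0.35, 0.36 and 0.33 in tamoxifen samples 1, 2 and 3 on the log2 scale, so both were even within that group. Btg2 stood at 1.07, 0.47 and 0.61 and Cdkn2c at 0.35, -0.05 and 0.00, each highest in tamoxifen sample 1. Cdkn1b and Ccnd2 had their lowest tamoxifen value in that sample, at -0.05 each. Over the 6 samples, Pearson's r was 0.92 between Ccng2 and Klf6, 0.84 between Rbl2 and Klf6, 0.775 between Btg2 and Cdkn2c, -0.86 between Rbl2 and Ccnd3 and -0.68 between Cdkn2c and Ccnd2. These values describe 6 arrays, and all genes share those arrays and the treatment.

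**Figure D3:**
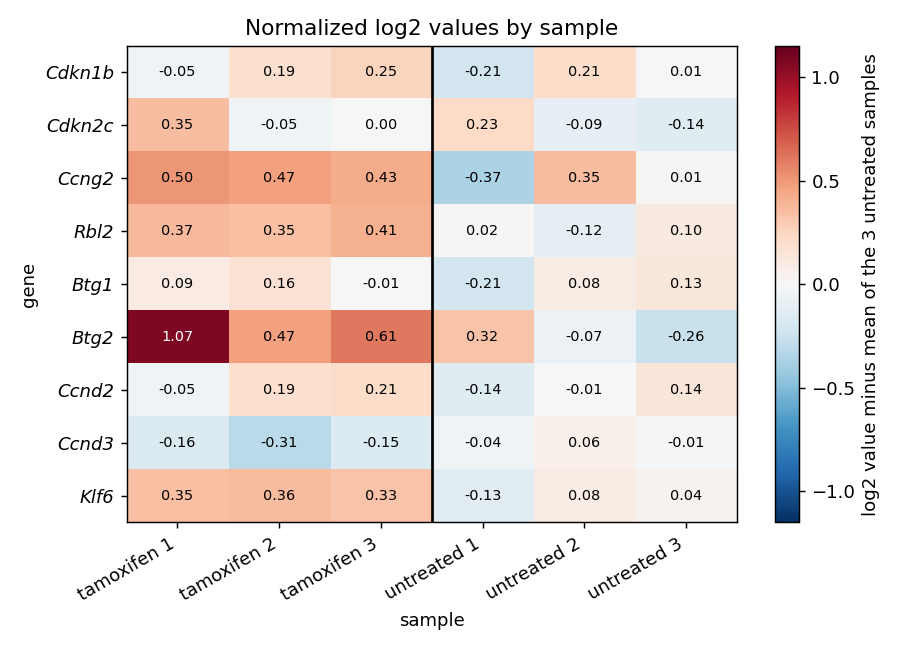
Normalized log2 value of each gene (rows) in each sample (columns, tamoxifen left of the line, untreated right), minus the mean of the 3 untreated samples of that gene. Rbl2 and Klf6 lie evenly above 0 across the tamoxifen columns, Ccnd3 is below 0 in all 3, and Btg2 reaches 1.07 in tamoxifen 1.

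For each gene the most similar patterns were sought among 10141 other genes in the brighter part of the array, by Pearson's r over the 6 samples. Closest to Rbl2 were Snapin (r = 0.996), Ccr7, a chemokine receptor of lymphocyte homing (0.986), and Nagk (0.978). Klf6 was most like Mbd4, a DNA repair glycosylase (0.996), Tmem123 (0.993) and Ankrd44 (0.991). Btg2 was most like Diaph1, an actin-nucleating formin (0.995), Sec11c (0.994) and Ndst2 (0.990), and Ccng2 was most like Lcp2 (0.991), Ccdc171 (0.991) and Kdm4c (0.991). Ccnd3 was most like Naf1 (0.988), Tecpr2 (0.985) and Egr1, an early-response transcription factor (0.985). Of these, Egr1 had a log2 fold change of -0.66 and Mbd4 of 0.47. The closest genes to Cdkn1b, Cdkn2c, Btg1 and Ccnd2 were Sympk (0.995), Trappc3 (0.998), Bbs10 (0.982) and Wdr7 (0.990). Between 14 and 177 of the 10141 genes reached an r of 0.95 with each of the 9, so the genes named are not the only close ones. Each r rests on 6 samples.

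A wider list of antiproliferative and quiescence-associated genes had 0 of 25 measured members past limma, where 0.0575% of all probe sets passed. The fold change was positive in 20 of 25, against 46.1% of all probe sets, with a median of 0.07 on the log2 scale. Groups did not overlap in 10 of 25, all higher in tamoxifen cells, where 5.03% of all probe sets were higher without overlap. At an unadjusted p under 0.05 there were 6 upward and 1 downward, against 2.97% and 2.14% of all probe sets. Tob1, which belongs to the same protein family as Btg1 and Btg2, measured 341, 346 and 350 in tamoxifen samples and 256, 274 and 235 in untreated samples. Its log2 fold change was 0.40 ± 0.07 (SE), and limma gave it an adjusted p of 0.249. Its relative Tob2 had 0.12 ± 0.06 (SE). Of the deadenylase partners of this family, Cnot8 had 0.28 ± 0.08 (SE) and Cnot7 0.03 ± 0.08 (SE). Pdcd4, an inhibitor of translation, had 0.63 ± 0.15, Ccng1, the p53-regulated relative of Ccng2, 0.26 ± 0.06, and Klf7 0.25 ± 0.07 (SE). Slfn2, known for keeping mouse T cells quiescent, measured -0.74 ± 0.27 (SE), with 313, 173 and 162 in tamoxifen samples and 486, 296 and 288 in untreated samples, and again sample 1 was the highest in each group. For Tob1, Pdcd4, Ccng1, Klf7, Cnot8 and Slfn2 the limma adjusted p lay between 0.249 and 0.909.

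The genes on which cell cycle inhibitors and D cyclins act had fold changes on both sides of 0. Of 26 measured G1 cyclins, CDKs, CDK inhibitors, pocket proteins and E2F genes, 0 passed limma, 38.5% were positive, against 46.1% of all probe sets, and the median log2 fold change was -0.04. Groups did not overlap in 2 of 26, both lower in tamoxifen cells, where 9.89% of all probe sets had groups without overlap. At an unadjusted p under 0.05 there was 1 of 26 (3.85%, against 5.11% of all probe sets), Tfdp1, which encodes the DNA-binding partner of E2F factors (-0.14 ± 0.05, SE). The next in order were Skp2, part of the ligase that degrades the Cdkn1b protein (-0.17), E2f3 (-0.21), E2f2 (0.21), Rbl1 and Ccne1 (-0.14). Cdk4 and Cdk6, the partners of D cyclins, had -0.16 ± 0.12 and -0.20 ± 0.15 (SE). The other INK4 genes Cdkn2a, Cdkn2b and Cdkn2d measured 0.10, 0.06 and 0.04, and Cdkn1c 0.05. Of 21 measured proliferation genes, 0 passed limma, where 0.0575% of all probe sets did. Of the 21, 33.3% were positive, against 46.1% of all probe sets, and the median was -0.09. Groups did not overlap in 4 of 21, 3 lower and 1 higher in tamoxifen cells, against 4.87% and 5.03% of all probe sets. The 1 member of 21 at an unadjusted p under 0.05 (4.76%, against 5.11% of all probe sets) was Rrm2, a subunit of ribonucleotide reductase (-0.22 ± 0.08, SE). Rrm2 was followed by Mcm6 (-0.18), Mcm4 (-0.12), Pcna (0.22), Mcm3 (-0.16) and Mcm7 (-0.23), which serve DNA replication. The proliferation marker Mki67 averaged 2774 in tamoxifen cells and 2642 in untreated cells, a log2 fold change of 0.09 ± 0.16 (SE).

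**Figure D4:**
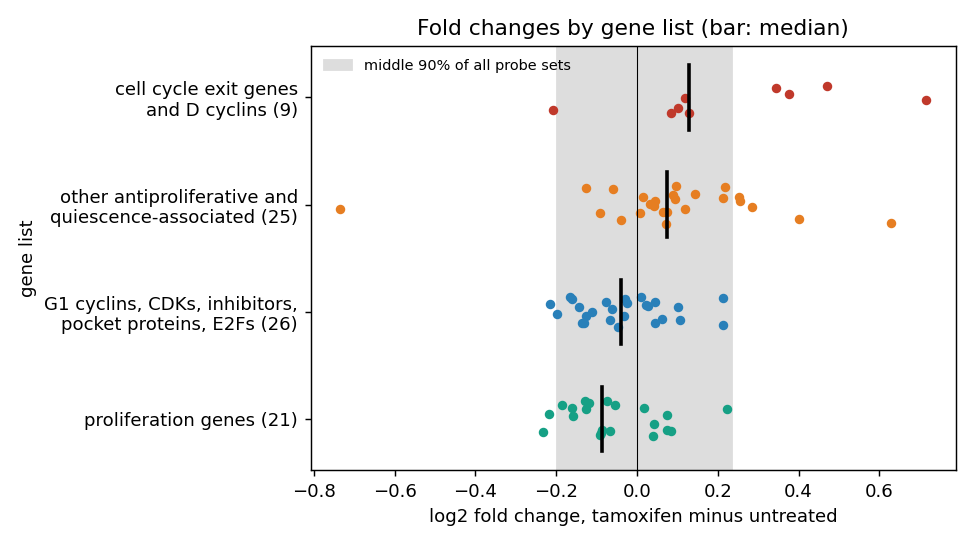
log2 fold change, tamoxifen minus untreated, of every measured gene in 4 lists, with a bar at each median and the grey band spanning the middle 90% of all probe sets (-0.20 to 0.24). The medians are 0.13 for the 9 genes, 0.07 for the other antiproliferative genes, -0.04 for the G1 genes and -0.09 for the proliferation genes.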

How the data were processed

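The authors deposited 1 summarised linear intensity for each probe set on each array. TRIZOL extraction, RNeasy purification and NuGen labelling are given in the labels' protocols, while background correction, probe summary and normalization are not given in the sources used here. Intensities plus 16 were converted to log2, quantile normalized over 6 arrays and fitted with limma 3.58.1 in R 4.3.3 over all 34760 probe sets, of which 21640 had 1 gene symbol. Intensities printed with an SD are deposited values. No array was left out, and precision is limited by their number. The fit was tested on simulated data.

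The members, lists and tests were chosen with earlier results of these data known. Named were the 9 members, Foxo1, the 6 genes of lowest p in each of the 3 cell cycle lists, markers below the lower quartile, and the 3 most similar genes per member (the closest alone for members with overlapping groups). Tob2, Cnot7, Rb1, Ccnd1, Cdk4, Cdk6, Mki67, Cdkn1c, 3 INK4 genes and the markers Cd79b, Pax5 and Ebf1 were named after their values were seen, most as relatives or partners. In 5 of the 8 gene and marker lists, 1 gene was not analysed here. The alternatives were a replicate block, each array left out, other normalizations (cyclic loess, common median, none), no dim probe sets, an intensity trend with robust estimation, array weights, pseudocounts of 1 and 64, gene averages and named probe sets alone. Figures were drawn with matplotlib 3.10.9.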

Additional observations from a re-analysis of the deposited data

How the results depend on the processing

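None of the 9 genes passed limma under any of 17 alternatives (0 of 153 values), and 151 of 153 kept their sign. With an array left out, Btg1 ran from -0.024 (without untreated 1) to 0.15 and Cdkn2c from -0.025 (without tamoxifen 1) to 0.22, and in both the negative value was the reversed one; the cause was not tested. The lowest adjusted p was 0.104, for Rbl2 with gene averages, where fewer features were tested. The 3 lists had 0 members called under every alternative. Calls over all probe sets numbered 20 in the fit reported and 0 to 73 under the alternatives, 0 to 6 with an array left out. The log2 fold change of Foxo1 lay between -2.26 and -1.97 with an array left out, and between -2.26 and -1.83 over all 17 alternatives. Under a replicate block the log2 fold change of Foxo1 stayed at -2.13 with a limma adjusted p of 0.0936. That fit called 0 probe sets, and no call on the 9 genes changed. It had 2525 probe sets at an unadjusted p under 0.05, against 1775 in the fit reported. With the block, the SE fell from 0.20 to 0.085 for Btg2 and from 0.14 to 0.062 for Cdkn2c, while for Ccnd3 it rose from 0.070 to 0.077. Deviations of same-numbered samples correlated at 0.256, 0.0547 and 0.302, and those of the other pairs at -0.42 to 0.248. The highest of these other pairs was tamoxifen 2 with untreated 3. No label says that a number pairs samples, and these values do not settle it, so the fit reported has no block. All 9 genes were bright, with Klf6 the dimmest at the percentile 72.9 of all probe set means.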
